A study of Canis lupus familiaris with 12 samples.

Results

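MYC, CCND1, CDKN1A and GAS1 were followed in canine kidney epithelial cells that carried one of 3 repressors of E-cadherin. They are 4 of 4325 named genes on the array, and were read by 13 of 13056 spots that belong to 8 of 4973 named cDNA clones. MYC had 4 spots of 2 clones, CCND1 had 4 spots of 3 clones, GAS1 had 4 spots of 2 clones, and CDKN1A had 1 spot. Every probe with one of these symbols was kept. The genes were picked with earlier results of the same arrays known, from their ratios in single transfectants, so their own ratios are a description. Where calls of the fit over all genes are counted for them, the choice of the genes largely fixed those counts, and nothing is read from them.

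Snail, Slug and E47, factors that repress E-cadherin, had each been introduced into MDCK, an established epithelial line from dog kidney, and each array set 1 such transfectant against MDCK-CMV control cells. Every transfectant had a sample 1 and a sample 2. Each sample had an array titled Cy5 and an array titled Cy3 for the dye of the transfectant, so there were 4 arrays per transfectant and 12 in all. The labels do not say whether a transfectant was a single cell clone, what drove the transgene, or whether samples 1 and 2 came from separate cultures. The arrays carried human cDNA clones, so dog RNA was measured across species, and a ratio holds no level, so the cell line could not be checked against its markers. All values below are log2 ratios of transfectant over control, where 1 unit is a doubling, and the number of arrays limits their precision.

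MYC is a helix-loop-helix transcription factor that drives growth and entry into the cell cycle. Cyclin D1, the product of CCND1, activates the kinases CDK4 and CDK6, which inactivate the RB protein and release E2F factors. Against them stand p21, the product of CDKN1A, which inhibits cyclin-dependent kinases and is induced by p53, and GAS1, a membrane protein first found in growth-arrested fibroblasts, which also binds hedgehog ligands. In epithelial cells MYC and CCND1 are known targets of beta-catenin, the partner of E-cadherin at the cell membrane.

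The direction of the ratios is assumed. The labels do not name the numerator channel, and 5 pairs of arrays of the same transfectant with the same dye label correlated, as deposited, between -0.67 and -0.44 across genes. Both arrays of Snail 2, both of Slug 1 and the E47 2 array titled Cy5 were therefore multiplied by -1, after which CDH1, the gene of E-cadherin and a known target of all 3 factors, lay below the control on 12 of 12 arrays. The leading eigenvector of the array correlations within each transfectant, computed without CDH1, grouped the arrays in the same way, and CDH1 set which group was turned. SNAI1, the gene of Snail, averaged 1.70 ± 0.95 in Snail, 0.67 ± 0.04 in Slug and 0.17 ± 0.03 in E47 (SD, n = 2 each). It lay opposite to CDH1 on 4 of 4 Snail arrays, as did 12.1% of 3767 genes. It was also opposite on 4 of 4 Slug arrays (22.3% of 4052 genes) and 3 of 4 E47 arrays, so this side was not particular to Snail. Of 3 CDH1 clones, 2 carried the fall and the third stayed near 0 (0.23 in Snail, -0.06 in Slug and 0.29 in E47). If the sign of a transfectant were turned, its higher and lower genes would exchange, while the side on which a gene lies relative to CDH1 would stay as it is.

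MYC lay below the control in the Snail transfectant. On the Snail arrays its log2 ratio was -1.50 (sample 1, titled Cy5), -0.98 (sample 1, titled Cy3), -2.13 (sample 2, titled Cy5) and -1.90 (sample 2, titled Cy3). On the Slug arrays it was -0.01, 0.04, -0.28 and -0.09 in the same order, and on the E47 arrays it was 0.25, 0.20, 0.28 and 0.17. All 4 Snail arrays lay below all 8 arrays of the other transfectants, as for 7.52% of 3537 genes with a value on all arrays, and sample 2 was lower than sample 1. The mean was -1.63 ± 0.55 (SD, n = 2) in Snail, a 3.10-fold lower ratio that ranked 25th of 3768 genes by size. It was -0.08 ± 0.14 in Slug, on both sides of 0, and 0.22 in E47, where samples 1 and 2 were equal to 2 decimals. That equality is no measure of precision, since the SE of the fit was 0.18. In E47 samples 1 and 2, clone 1 was at 0.35 and 0.20, and clone 2 at 0.09 and 0.25.

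Both MYC clones showed this order. Clone 1 averaged -1.32 ± 0.25 in Snail, -0.19 ± 0.10 in Slug and 0.28 ± 0.11 in E47 (SD, n = 2 each). Clone 2 averaged -1.94 ± 0.85 in Snail, 0.02 ± 0.17 in Slug and 0.17 ± 0.11 in E47. The clones were apart mainly in Snail sample 2, where clone 1 was at -1.49 and clone 2 at -2.55. As these are ratios of bulk RNA, a lower level in every cell and a smaller share of cells with the transcript cannot be told apart.

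CCND1 lay on opposite sides of the control in different transfectants: below it in Snail, and above it in Slug and E47. Its log2 ratio was -0.95, -0.86, -1.22 and -0.15 on the Snail arrays (samples 1 and 2, Cy5 before Cy3 in each). It was 0.44, 1.01, 0.69 and 0.62 on the Slug arrays, and 0.63, 0.77, 0.86 and 0.66 on the E47 arrays. The Snail arrays were all below 0 and the 8 others all above it, as for 2.35% of 3537 genes, while Slug and E47 overlapped. Against Slug alone this held for 5.36% of 3675 genes, and against E47 alone for 5.28% of 3617. The means were -0.80 ± 0.16 in Snail (1.74-fold lower), 0.69 ± 0.05 in Slug (1.61-fold higher) and 0.73 ± 0.05 in E47 (1.66-fold higher; SD, n = 2 each).

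**Figure D1:**
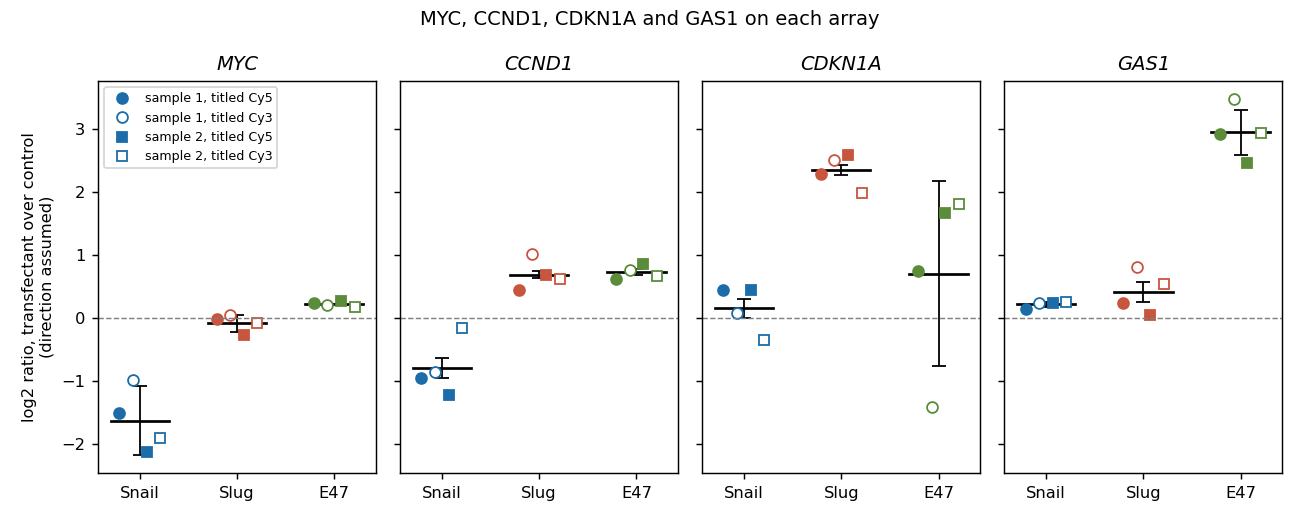
Log2 ratio of transfectant over control (vertical axis, direction assumed) for each gene on each of the 12 arrays. Filled symbols are arrays with the transfectant in Cy5, open symbols Cy3, circles sample 1 and squares sample 2; lines are means of the 2 samples and bars their SD. MYC is low on the 4 Snail arrays, CCND1 is below 0 in Snail and above 0 in Slug and E47, CDKN1A is high in Slug, and GAS1 is high in E47.

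These CCND1 means hold a clone that did not share the pattern. Clone 1 was at -0.97 ± 0.36 in Snail, 1.38 ± 0.33 in Slug and 1.201 ± 0.17 in E47. Clone 2 was at -1.33 ± 0.36, 0.93 ± 0.02 and 0.95 ± 0.08 (SD, n = 2 each). Clone 3, read by a single spot, was at -0.23 ± 0.20 in Slug and 0.03 ± 0.11 in E47, and had values from -0.18 to 0.68 on 3 Snail arrays. It had no value on Snail 2 titled Cy5, so the CCND1 ratio of -1.22 on that array rests on clones 1 and 2 alone. Without clone 3, a choice made after the values were seen, the means were -1.15 in Snail, 1.15 in Slug and 1.08 in E47. The duplicate spots of clone 1 also parted on single arrays: on Snail 2 titled Cy3 they read 0.29 and -0.95, and on Slug 2 titled Cy3 -0.37 and 2.25. The median absolute difference between duplicate spots of a clone was 0.31 and 0.46 on those arrays.

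CDKN1A was highest in the Slug transfectant. The arrays gave 2.29, 2.51, 2.59 and 1.99 in Slug, in the same order as above. Snail gave 0.44, 0.08, 0.44 and -0.35, and E47 gave 0.75, -1.42, 1.67 and 1.81. Every Slug array lay above every array of the other transfectants, as for 4.24% of 3537 genes. Snail straddled 0, and in E47 3 arrays were above 0 and 1 far below it. The mean in Slug was 2.35 ± 0.08 (SD, n = 2), a 5.09-fold higher ratio that ranked 13th of 4053 genes by size. In Snail it was 0.15 ± 0.15.

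In E47 the CDKN1A value depended on a single array. Sample 1 averaged -0.34 and sample 2 averaged 1.74, so the mean of 0.70 had an SD of 1.47 (n = 2). The SE of the fit, which pools the spread over transfectants, was 0.39. Without the E47 1 array titled Cy3, a choice made after the values were seen, the mean was 1.24 ± 0.21 (SE of the fit). The samples still lay apart then, with sample 1 at 0.75 from its remaining array and sample 2 at 1.74. The only CDKN1A spot is number 2295 and so lies among the lower-numbered spots, up to 6528. On that array these spots correlated with the mean of the other E47 arrays with r = 0.17 across spots, against 0.59 for the higher-numbered spots, while on the other 3 E47 arrays the lower-numbered spots gave 0.46 to 0.69. On the same array the first CDH1 clone read 0.48 at its lower-numbered spot and -3.31 at its higher-numbered one. The CDKN1A value below 0 in Snail (-0.35) came from Snail 2 titled Cy3. There the lower-numbered spots correlated with the mean of the other Snail arrays with r = 0.46, against 0.77 for the higher-numbered spots. The second CDH1 clone read 0.20 at its lower-numbered spot on that Snail array and -4.29 at its higher-numbered one. The part of the array surface in the CDKN1A values was not tested.

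GAS1 was highest in the E47 transfectant. On the E47 arrays its log2 ratio was 2.92, 3.48, 2.47 and 2.94, against 0.24, 0.81, 0.05 and 0.54 on the Slug arrays and 0.14, 0.24, 0.24 and 0.26 on the Snail arrays. It was above 0 on all 12 arrays, and the E47 arrays lay above the 8 others, as for 2.26% of 3537 genes. The mean was 2.95 ± 0.36 in E47 (7.74-fold higher; SD, n = 2), which ranked 5th of 3966 genes by size. It was 0.41 ± 0.16 in Slug and 0.22 ± 0.04 in Snail.

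Clone 1 of GAS1 gave 3.51 ± 0.54 in E47, 0.48 ± 0.10 in Slug and 0.34 ± 0.11 in Snail. Clone 2 gave 2.40 ± 1.25, 0.34 ± 0.43 and 0.09 ± 0.19 (SD, n = 2 each). In E47 clone 2 was at 3.28 in sample 1 and 1.52 in sample 2, whereas clone 1 was at 3.13 and 3.89, so the clones differed in opposite directions between the samples. The first spot of clone 2 had a value on 4 of 12 arrays, and on the others the clone rests on its second spot.

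**Figure D2:**
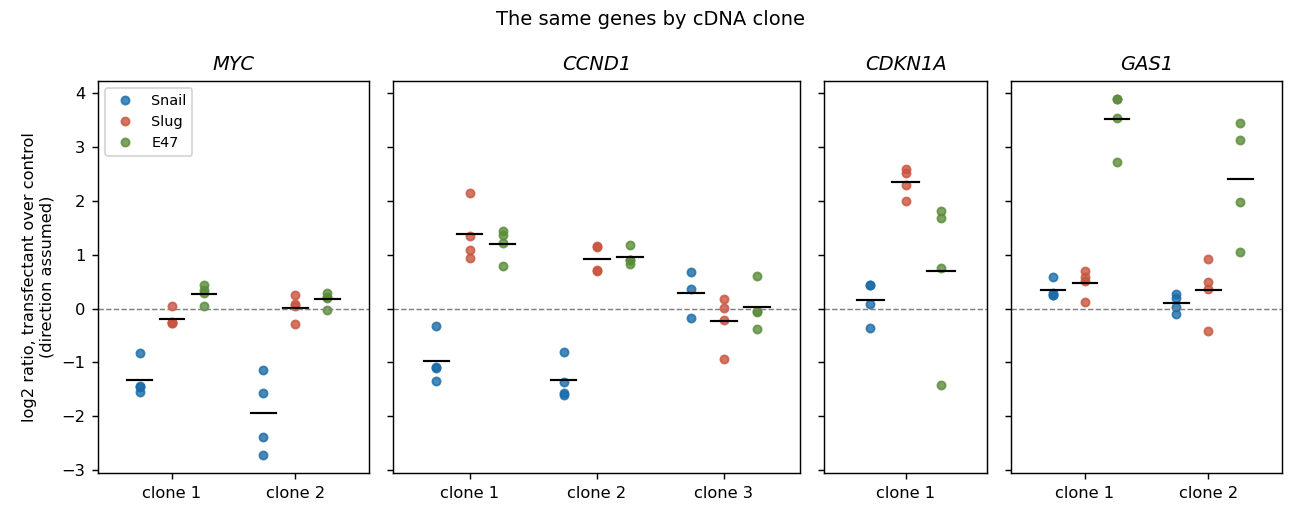
Log2 ratio of transfectant over control (vertical axis, direction assumed) for each cDNA clone of the 4 genes; points are arrays, coloured by transfectant, and lines are means over the arrays with a value. The MYC and GAS1 clones show the same order of transfectants. The means of CCND1 clone 3 are nearer to 0 in all 3 than those of clones 1 and 2, though its single arrays range from -0.93 to 0.68.

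In the limma fit over all genes, with Benjamini-Hochberg adjusted p under 0.05 as the threshold, 2 of the 4 genes passed in each transfectant. MYC and CCND1 passed in Snail, where 7.22% of 3768 genes did. CDKN1A and CCND1 passed in Slug, where 21.8% of 4053 genes did, and GAS1 and CCND1 passed in E47, where 5.3% of 3966 did. Nothing is read from these counts, since the genes were chosen from the same ratios. CCND1 no longer passed in Snail without either Snail sample (-0.69 and -0.91), in Slug without Slug sample 1 (0.66), or in E47 without either E47 sample (0.76 and 0.70). With the arrays titled Cy3 alone CCND1 passed in none of the 3 transfectants and CDKN1A did not pass in Slug. With the sign of each transfectant turned, MYC would be at 1.63 in Snail, 0.08 in Slug and -0.22 in E47. CCND1 would be at 0.80, -0.69 and -0.73, CDKN1A at -0.15, -2.35 and -0.70, and GAS1 at -0.22, -0.41 and -2.95.

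**Figure D3:**
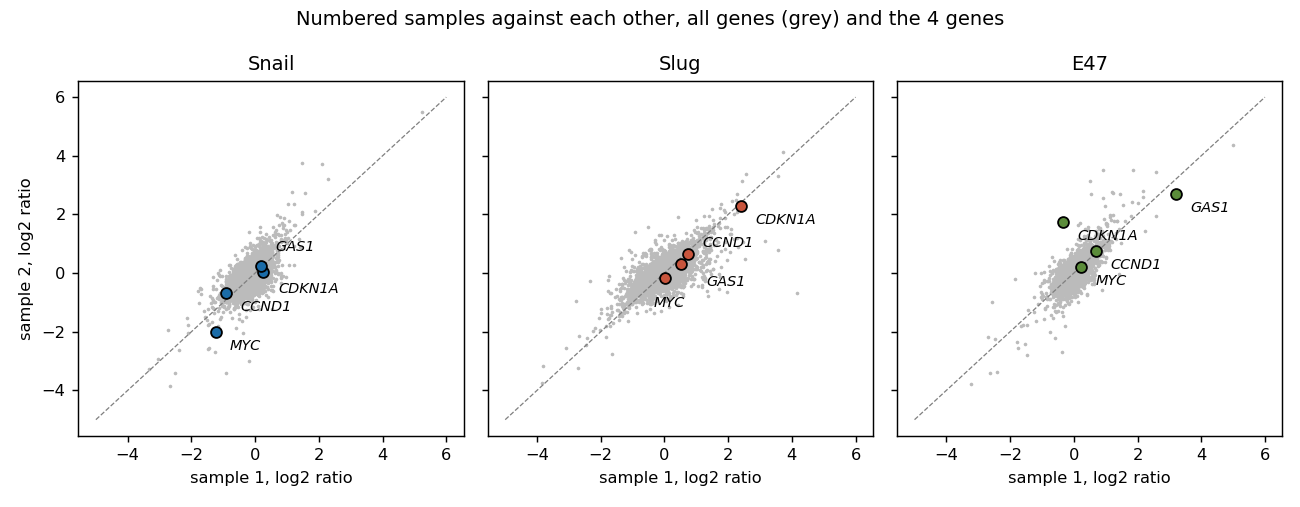
Log2 ratios of sample 1 (horizontal axis) and sample 2 (vertical axis) in each transfectant, for all genes (grey) and the 4 genes (coloured); the dashed line marks equal values. MYC in Snail, CDKN1A in Slug and GAS1 in E47 lie far from 0 in both samples, and CDKN1A in E47 lies far from the dashed line, at -0.34 in sample 1 and 1.74 in sample 2.

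The order of the transfectants differed from gene to gene. For MYC the order from high to low was E47, Slug, Snail, with a difference of -0.31 ± 0.26 (SE) for Slug minus E47, -1.55 ± 0.26 for Snail minus Slug and -1.85 ± 0.26 for Snail minus E47. For CCND1 the difference was -0.04 ± 0.17 for Slug minus E47, which is smaller than its error, -1.49 ± 0.17 for Snail minus Slug and -1.52 ± 0.17 for Snail minus E47. For CDKN1A it was 1.65 ± 0.55 for Slug minus E47, -2.20 ± 0.55 for Snail minus Slug and -0.55 ± 0.55 for Snail minus E47, and this error includes the 2 E47 samples that lay apart. For GAS1 it was -2.54 ± 0.21 for Slug minus E47, -2.73 ± 0.21 for Snail minus E47 and -0.19 ± 0.21 for Snail minus Slug.

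Over all genes, limma's test of the difference (adjusted p under 0.05) passed for 13.2% of 3675 genes in Snail minus Slug, with 4.08% higher and 9.14% lower in Snail. It passed for 2.57% of 3617 in Snail minus E47, with 0.166% higher and 2.41% lower in Snail, and for 0.786% of 3816 in Slug minus E47, with 0.262% higher and 0.524% lower in Slug. Calls of the 4 genes are not counted here, since they were chosen from the same ratios. These differences assume the sign of both transfectants of a pair.

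Sides of 0 relative to CDH1 and to each other do not need the signs, because both genes were read on the same array. On the arrays as deposited, GAS1 lay opposite to CDH1 on 12 of 12 arrays, as did 2.32% of 3536 genes with a value on all arrays, while 3.03% lay on its side throughout. MYC lay on the side of CDH1 on 4 of 4 Snail arrays (as did 24.1% of 3767 genes), on 3 of 4 Slug arrays (19.2% of all genes did so on 4 of 4) and on 0 of 4 E47 arrays. CCND1 lay on the side of CDH1 on 4 of 4 Snail arrays, and opposite to it on 4 of 4 Slug arrays (22.3% of 4052 genes) and 4 of 4 E47 arrays (18% of 3965). CDKN1A lay opposite to CDH1 on 4 of 4 Slug arrays and on 3 of 4 arrays each of Snail and E47.

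By side of 0, the growth drivers and arrest genes were not arranged alike in the 3 transfectants. This is a description: the genes were chosen from these ratios, and the share among all pairs of genes was not computed. The 2 arrays of a sample are not independent. Some of these sides are of means near 0 that did not pass: GAS1 (0.22) and CDKN1A (0.15) in Snail, and MYC in Slug (-0.08) and E47 (0.22). In Snail, MYC and CCND1 were on the same side on 4 of 4 arrays, and each was opposite to GAS1 on 4 of 4 and to CDKN1A on 3 of 4. In Slug, CCND1 was on the same side as both CDKN1A and GAS1 on 4 of 4 arrays, and MYC was opposite to CCND1 on 3 of 4. In E47, CCND1, MYC and GAS1 were on the same side on 4 of 4 arrays, and CDKN1A joined them on 3. Over the 12 arrays the cosine of 2 genes' ratios, an uncentred similarity that does not depend on array signs, was 0.60 for MYC with CCND1, 0.56 for CCND1 with GAS1 and 0.50 for CCND1 with CDKN1A. It was 0.31 for CDKN1A with GAS1, 0.05 for MYC with GAS1 and -0.06 for MYC with CDKN1A. The 12 arrays come from 6 samples and carry no p.

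The same cosine was used to find the genes with the most similar ratios among 917 genes with a value on all arrays and a root mean square of at least 0.5. Closest to MYC were CNBP, a nucleic acid binding protein (0.96), RPS21, a ribosomal protein (0.95), and BGN, the proteoglycan biglycan (0.94). Their means in Snail were -1.23, -1.05 and -1.03. Most opposite were SUB1, a transcription coactivator (-0.97), CTSV, a cathepsin (-0.95), and RARRES2, the secreted chemerin (-0.90). SUB1 had a mean of 0.85 in Snail, -0.07 in Slug and 0.01 in E47.

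Closest to CCND1 were HDGF, a nuclear growth factor (0.94), HSPA4, a heat shock protein (0.91), and EEF1D, a translation elongation factor (0.90). HDGF had -1.45 in Snail, 0.91 in Slug and 0.74 in E47. Opposite to CCND1 were RPL18, a ribosomal protein (-0.90), NDUFB3, a subunit of respiratory complex I (-0.87), and DAD1, a subunit of oligosaccharyltransferase (-0.84). RPL18 was at 0.67 in Snail, -0.40 in Slug and -0.63 in E47.

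CDKN1A was followed by ANO6, a phospholipid scramblase (0.96), and by the transcription factors NFIL3 (0.95) and RUNX1 (0.94). ANO6 had 0.50 in Snail, 1.90 in Slug and 0.95 in E47. Its opposites were GPBP1L1 (-0.96), with -1.58 in Slug, EIF2A, a translation initiation factor (-0.91), and CHL1, a cell adhesion molecule (-0.91). GAS1 was closest to DDX6, an RNA helicase (0.96), ITGA7, a laminin receptor subunit (0.95), and ID4, an inhibitor of helix-loop-helix factors (0.94). In E47 ITGA7 had 2.11, ID4 had 1.49 and DDX6 had 0.88. Opposite to GAS1 were CCNC, cyclin C (-0.83), TSPAN13, a tetraspanin (-0.82), and RTRAF, an RNA-binding factor (-0.80).

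The genes around these 4 were read through 11 lists, chosen with earlier results of these arrays known. Among all genes tested, 2.15% were called higher and 5.07% lower in Snail, 12.2% and 9.62% in Slug, and 3.81% and 1.49% in E47. Their median log2 ratio was -0.05, 0.02 and 0.01. Counts higher and lower would exchange with the sign of a transfectant. Of 42 calls named below, 10 passed limma's threshold whichever sample was left out, all in Slug: BUB1, CCNK, E2F1, EGR1, EIF2S1, GSK3A, JUND, PA2G4, SFN and TOB1. The other 32 were lost without at least 1 sample. With the arrays titled Cy3 alone 27 of the 42 were lost, and with those titled Cy5 alone 9. With the higher-numbered spots alone 7 were lost and 29 kept, the rest having no value there. In Slug these spots did not correlate better throughout with the mean of the other Slug arrays. Their r was 0.46 and 0.64 on Slug 1 (Cy5, Cy3) and 0.38 and 0.51 on Slug 2. The lower-numbered spots gave 0.70, 0.84, 0.68 and 0.42 in that order.

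In the MYC network of partners and antagonists, 0 of 13 genes passed in limma in Snail or Slug (1 and 2 at an unadjusted p under 0.05). In E47 1 of 13 rose, MXD4, an antagonist that competes for the MYC partner MAX (0.66 ± 0.15, SE; adjusted p = 0.0421), a call lost without either E47 sample or either Snail sample. MAX itself was at 0.27 in Snail, -0.17 in Slug and -0.11 in E47. It did not pass. Of genes known as MYC targets, 1 of 13 fell in Snail, ODC1, the first enzyme of polyamine synthesis (-1.14 ± 0.16, adjusted p = 0.0069). ODC1 was at -1.31 in sample 1 and -0.96 in sample 2 of Snail, and at 0.23 in Slug and -0.03 in E47. ENO1, enolase, rose in Snail (0.83, adjusted p = 0.0119). In Slug 2 of 12 rose, PA2G4, a growth regulator (1.05, adjusted p = 0.0028), and APEX1, a DNA repair enzyme (0.68, adjusted p = 0.0062). EIF2S1, a translation initiation factor, fell in Slug (-1.19, adjusted p = 0.0020) and in E47 (-0.66, adjusted p = 0.0392), where it was the only one of 13 to pass. The list medians were -0.11, 0.19 and -0.10 in Snail, Slug and E47.

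Among the other cyclins and cyclin-dependent kinases, 1 of 26 rose in Snail, CKS2, a kinase subunit (0.73, adjusted p = 0.0192), and 2 fell, WEE1, a kinase that holds CDK1 inactive (-0.64, adjusted p = 0.0151), and CCNB2, a mitotic cyclin (-0.62, adjusted p = 0.0206). In Slug 5 of 27 rose and 2 fell, led by CDC25B, a phosphatase that activates CDK1 (0.75, adjusted p = 0.0104), CCNI (0.75, adjusted p = 0.0157) and CCNK (0.74, adjusted p = 0.0073). CCNK was at 0.07 with the higher-numbered spots alone. In E47 1 of 26 fell, CCNC (-0.67, adjusted p = 0.0327). CDK4, the partner of cyclin D1, was at -0.56, -0.09 and -0.33 in Snail, Slug and E47, and CDK6 was at -0.19, 0.30 and 0.43; neither passed. CCND2 and CCND3, the other D-type cyclins, lay between -0.30 and 0.28 and did not pass.

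Among the other inhibitors of cyclin-dependent kinases, 0 of 5 passed in limma in Snail, 0 of 5 in Slug and 0 of 6 in E47 (2, 2 and 0 at an unadjusted p under 0.05). CDKN1B, p27, a relative of p21, was at -0.35 in Snail, 0.12 in Slug and -0.11 in E47. CDKN1C, p57, was at -0.05, -0.36 and -0.15. CDKN3 was at 0.32, 0.36 and -0.003, and did not pass. In Slug 4 of 5 genes of this list were above 0, as were 52.6% of all genes, against 3 of 5 in Snail (41.1%) and 1 of 6 in E47 (51.4%). The Slug ratio of CDKN1A was 2.35.

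RB and E2F genes had 3 of 9 higher and 0 lower in Slug. E2F1, which is released from RB, rose by 1.41 ± 0.14 (SE; adjusted p = 8.78e-04), E2F2 by 0.59 (adjusted p = 0.0124) and E2F4 by 0.46 (adjusted p = 0.0380). None of 9 passed in Snail or E47 in limma (1 and 3 at an unadjusted p under 0.05). Among p53 and its targets 0 of 16 passed in Snail (3 unadjusted). In Slug 2 of 16 rose and 1 fell: SFN, 14-3-3 sigma, an arrest gene of G2 (1.04, adjusted p = 0.0021), BBC3, the death gene PUMA (0.55, adjusted p = 0.0334), and TP53INP1, a stress protein (-0.53, adjusted p = 0.0243). SFN also rose in E47 (0.80, adjusted p = 0.0138), the 1 of 17 that passed there, and MDM2, a p53 target and its inhibitor, was at 0.18, -0.15 and 0.28 without passing.

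Growth arrest and antiproliferative genes had 3 of 12 higher in E47: TOB1 (1.13 ± 0.13, SE; adjusted p = 0.0038) and BTG3 (1.01, adjusted p = 0.0334), both of the antiproliferative BTG family, and GAS7, a gene of arrested cells (0.93, adjusted p = 0.0079). TOB1 was at 1.156 and 1.1004 in the E47 samples, and rose in Slug as well (1.05, adjusted p = 0.0021), as the 1 of 12 that passed there. In Snail BTG3 rose (0.97, adjusted p = 0.0341) and BTG1, of the same family, fell (-1.03, adjusted p = 0.0038). Of the hedgehog pathway, to which GAS1 belongs as a co-receptor, 0 of 5 passed in limma in Snail or E47 (0 and 1 at an unadjusted p under 0.05) and 1 of 5 rose in Slug, GLI1, a transcription factor (0.61, adjusted p = 0.0209). The receptor gene PTCH1 lay between -0.08 and 0.08. CDON, the gene of this list with the largest ratio in E47, was at 0.88 there, with samples at 0.14 and 1.63. It was at 0.25 in Snail and -0.03 in Slug, and passed in none of the transfectants.

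**Figure D4:**
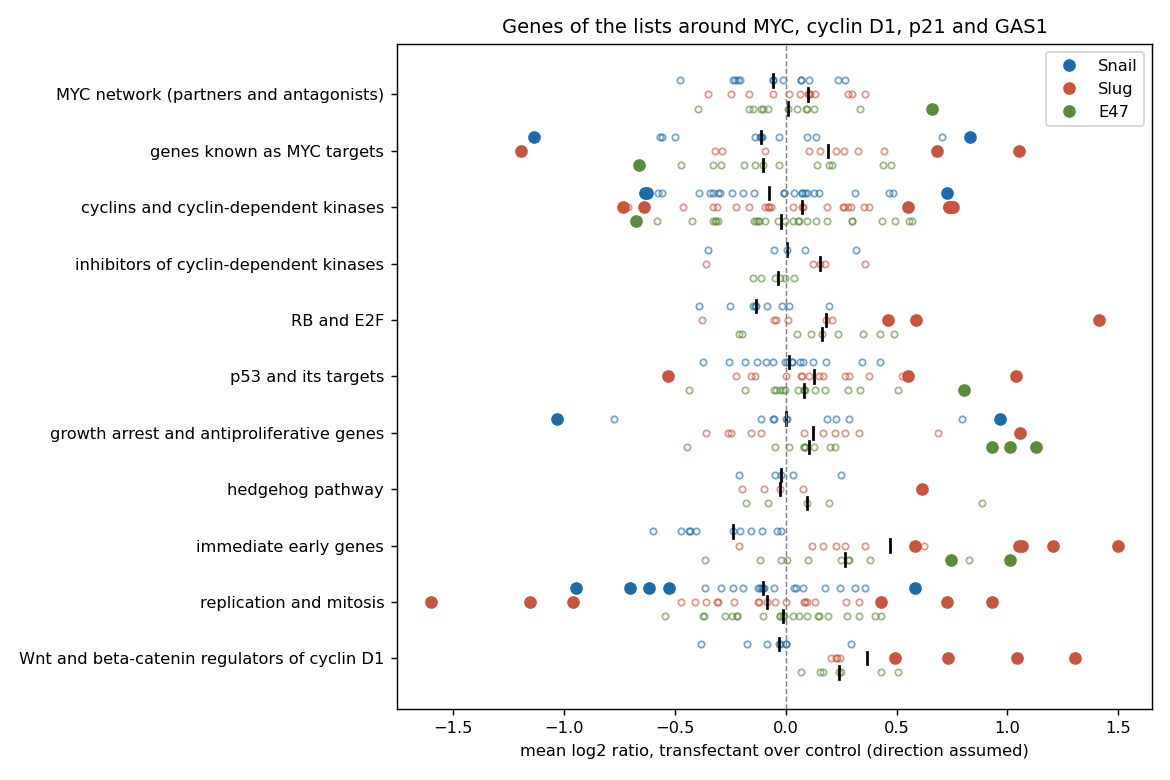
Mean log2 ratio of transfectant over control (horizontal axis, direction assumed) for the tested genes of 11 lists, by transfectant; large filled points passed adjusted p of 0.05 in limma, small open points did not, and black ticks are list medians. Immediate early genes are all below 0 in Snail and have 5 called points above 0 in Slug, where E2F1 stands at 1.41 and BUB1 at -1.60.

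The list of immediate early genes, many but not all of which respond to growth signals within minutes, had 5 of 12 higher in Slug and 2 of 12 higher in E47. JUND, an AP-1 factor, rose in Slug (1.499 ± 0.12, SE; adjusted p = 6.91e-04) and E47 (0.74, adjusted p = 0.0153). EGR1, a zinc finger factor, rose in both (1.07, adjusted p = 0.0033, and 1.01, adjusted p = 0.0111), and JUNB rose in Slug (1.21, adjusted p = 0.0257) with samples at 1.97 and 0.44. The EGR1 ratio lay on the same side of 0 on 3 of 4 Slug arrays and on 4 of 4 E47 arrays. In Snail none of 11 passed in limma (4 at an unadjusted p under 0.05), and 11 of 11 were below 0, as were 58.9% of all genes. Medians were -0.24 in Snail, 0.47 in Slug and 0.27 in E47.

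Replication and mitosis genes went both ways. In Snail 1 of 22 rose and 4 fell, among them MCM5, a subunit of the replicative helicase (-0.95, adjusted p = 0.0122), MAD2L1, a spindle checkpoint gene (-0.70, adjusted p = 0.0309), and RRM2, a subunit of ribonucleotide reductase (-0.62, adjusted p = 0.0494). In Slug 3 of 23 rose and 3 fell, and the largest were BUB1, a checkpoint kinase (-1.60 ± 0.16, SE; adjusted p = 0.0011), KIF11, a spindle motor (-1.15, adjusted p = 0.0073), and MAD2L1 (-0.96, adjusted p = 0.0046). In E47 0 of 22 passed in limma (6 at an unadjusted p under 0.05). Of the Wnt and beta-catenin genes upstream of cyclin D1, 4 of 8 rose in Slug, led by GSK3A, a kinase of beta-catenin and cyclin D1 (1.30, adjusted p = 0.0016), TLE1, a corepressor (1.04, adjusted p = 0.0097), and AXIN1, a scaffold of the destruction complex (0.73, adjusted p = 0.0131). None of 8 passed in Snail or of 7 in E47 (1 each at an unadjusted p under 0.05 in limma), and CTNNB1, beta-catenin, was at 0.29, 0.20 and 0.24 in Snail, Slug and E47.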

How the data were processed

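The authors' deposited table held 1 log2 ratio per spot and array; per the labels, each array set a transfectant against MDCK-CMV. How the scans were background-corrected and normalized, and why some cells are empty, is not stated in the labels. The 12 arrays had values for 10654 to 12982 of 13056 spots. Of these, 8047 spots had 1 gene symbol in the platform annotation, 276 had several and 4733 had none; only the first entered.

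Signs were turned as described, spots of a clone averaged, then clones of a gene, then the 2 arrays of a sample, both needed. limma 3.58.1 in R 4.3.3 fitted the 3 transfectants together without an intercept (prior degrees of freedom 4.85), tested each mean against 0 and each pair, two-sided, with Benjamini-Hochberg adjustment over all genes. A ratio against 0 leaves out the control's own spread, the 3 comparisons share that control, and p-values therefore reflect the spread of these samples alone, which may be technical. The script was tested on simulated data. The 4 genes, the lists and the naming rules (the 3 most and least similar genes; at most 3 called genes per list and transfectant, by size) were chosen with earlier results of these data known. Genes outside these rules are named only as relatives of the 4, chosen after their values were seen. Same-numbered samples deviated together weakly for Snail with E47 (r = 0.23 across genes) and hardly for Snail with Slug (0.02) or Slug with E47 (-0.06). The numbers were not taken as pairs, and a fit with them as a block is given below.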

Additional observations from a re-analysis of the deposited data

Results flagged for a closer look

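For MYC and CCND1, all arrays of one transfectant lay on one side of 0 and all arrays of another on the opposite side. The Snail arrays were below 0 and the others above it for MYC in Snail minus E47 (-1.85), for CCND1 in Snail minus Slug (-1.49) and for CCND1 in Snail minus E47 (-1.52). Among all genes the same position was held by 5.28% of 3617 for Snail against E47 and by 5.36% of 3675 for Snail against Slug. The genes were chosen from these ratios, so the differences are a description, whatever the fit over all genes called.

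Single arrays stood apart from the other 3 of their transfectant by Dixon's criterion for GAS1 (Snail 1 titled Cy5, 0.14), GAS1 clone 1 (Snail 1 titled Cy3, 0.59), MYC clone 1 in Snail (Snail 1 titled Cy3, -0.83) and MYC clone 1 in Slug (Slug 1 titled Cy3, 0.041). Chance would flag about 1 in 20 groups of 4 independent values, and 35 groups of 4 arrays were looked at. The arrays of a group come in pairs from 1 sample, and a gene was looked at along with its own clones. That rate therefore need not hold here. The CDKN1A value of -1.42 on E47 1 titled Cy3 did not meet the criterion.

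Among the other named genes, limma's test of the difference between transfectants (adjusted p under 0.05) passed as follows. These genes were named for the size of their call in at least 1 of the transfectants compared, so the test reuses the values that chose them and is no independent support. Over all genes it passed for 13.2% in Snail minus Slug, 2.57% in Snail minus E47 and 0.786% in Slug minus E47. Snail was lower than Slug for JUND (-1.94), EGR1 (-1.66), JUNB (-1.64), PA2G4 (-1.55), SFN (-1.41), E2F1 (-1.40), ODC1 (-1.36) and GSK3A (-1.30). It was also lower for AXIN1 (-1.11), CDC25B (-1.08), TLE1 (-1.07), WEE1 (-1.01), MCM5 (-0.90), CCNB2 (-0.88), GLI1 (-0.82), APEX1 (-0.79), TOB1 (-0.77), E2F2 (-0.73) and BTG1 (-0.67). Snail was higher for BUB1 (1.36), EIF2S1 (1.16) and CKS2 (0.81). In Snail minus E47 the difference passed for EGR1 (-1.61), JUND (-1.18) and SFN (-1.17), and in Slug minus E47 for GAS7 (-1.18). All of these rest on the assumed signs of both transfectants.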

How the results depend on the processing

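Signs are the main limit. With signs taken from the labels' dyes instead, MYC was at -0.073 in Snail and -0.10 in E47, CCND1 at 0.24 in Snail, 0.16 in Slug and -0.41 in E47, CDKN1A at -0.11, 0.21 and -0.33, and GAS1 at -0.022 in Snail and -1.49 in E47. limma then called 0 genes in each of the 6 comparisons, with 50 (Snail), 209 (Slug), 207 (E47), 79 (Snail minus Slug), 49 (Snail minus E47) and 198 (Slug minus E47) at an unadjusted p under 0.05. Arrays of opposite sign are averaged in that setting. With the arrays titled Cy3 alone, CCND1 was at -0.51 in Snail, 0.82 in Slug and 0.71 in E47. CDKN1A was at -0.13 in Snail and 2.25 in Slug. In limma none of the CCND1 values then passed (adjusted p = 0.338, 0.0514 and 0.244), nor did CDKN1A in Slug (adjusted p = 0.0517). With those titled Cy5 alone, CCND1 was at 0.56 in Slug and did not pass in limma (adjusted p = 0.0708). CDKN1A was at 1.21 in E47 and then passed, as it did not in the main fit. As a mean over all spots GAS1 was at 0.43 in Slug and passed, unlike in the main fit. Without the E47 1 array titled Cy3, a setting added after seeing the data, CDKN1A was at 1.24 in E47 and passed.

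Counts past the threshold, in the order Snail, Slug, E47, Snail minus Slug, Snail minus E47 and Slug minus E47, were 272, 885, 210, 486, 93 and 30. With Cy3 arrays alone they were 56, 372, 42, 88, 1 and 4. Those beyond 1.5 times with Cy5 arrays alone were 576 (Slug), 265 (Snail minus Slug) and 39 (Snail minus E47). Without the E47 1 array titled Cy3 they were 368 (E47), 199 (Snail minus E47) and 66 (Slug minus E47). With single arrays and the sample as random block they were 594 (Snail), 451 (E47), 887 (Snail minus Slug), 394 (Snail minus E47) and 197 (Slug minus E47). With each comparison's own groups alone they were 568 (Snail), 539 (Slug), 391 (E47) and 15 (Slug minus E47). With arrays scaled to 1 spread they were 436 (Slug), 310 (Snail minus Slug), 184 (Snail minus E47) and 15 (Slug minus E47). With the higher-numbered spots alone they were 496 (Slug) and 321 (Snail minus Slug). On both Slug 1 arrays and on Slug 2 titled Cy5, those spots correlated less with the other Slug arrays than the lower-numbered ones did.

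Leaving out 1 sample at a time, where the lone sample is assumed to vary like the others, MYC ranged from -2.02 to -1.24 in Snail, -0.183 to 0.0139 in Slug and 0.222 to 0.223 in E47. CCND1 ranged from -0.91 to -0.69, 0.66 to 0.73 and 0.70 to 0.76, and was no longer past the threshold without either Snail sample, Slug sample 1 or either E47 sample, for the transfectant left short. CDKN1A ranged from 0.04 to 0.26, 2.29 to 2.40 and -0.34 to 1.74, with the E47 value below 0 without sample 2. GAS1 ranged from 0.19 to 0.25, 0.29 to 0.53 and 2.70 to 3.20. Counts ranged from 34 to 345 (Snail), 339 to 891 (Slug), 26 to 275 (E47), 138 to 389 (Snail minus Slug), 3 to 137 (Snail minus E47) and 8 to 27 (Slug minus E47).

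With the replicate number as a block the counts were 294, 903, 231, 519, 101 and 34 in the order above; MXD4 in E47 (adjusted p = 0.0524) and RRM2 in Snail (adjusted p = 0.0597) no longer passed in limma. The numbers were not shown to pair the samples. The causes of these shifts were not tested.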
